A study of Homo sapiens with 3 samples.

Results

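In HEL cells, a set of YBX1 peaks lay on tandem repeats of the trinucleotide ATC. A peak was a member of this set when the repeat named for it in the deposited annotation was a simple repeat whose unit equals ATC after rotation or strand reversal, and when it lay on chromosomes 1 to 22. That gave 428 peaks of 40159 in all, 235 of 22874 in replicate 1 and 193 of 17285 in replicate 2. A further 22 and 10 ATC peaks lay on X or Y and were left out, and no ATC peak lay on an alternative contig.

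HEL cells are an established erythroleukaemia line of human origin that carries JAK2-V617F, and the series asks where YBX1 sits on their chromatin. Chromatin of untreated, formaldehyde-crosslinked cells was immunoprecipitated with an antibody against YBX1 in 2 replicates, and each was set against the same single input library of sheared chromatin. Separate cultures are not stated for the replicates, so the spread between them may be technical. After duplicate removal the replicates held 10010819 and 9926271 tags (mapped reads) and the input 74780414. No precipitation with a control antibody was analysed here, so recovery of these repeats without YBX1 was not measured.

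YBX1 (YB-1) binds single-stranded and double-stranded nucleic acids through its cold-shock domain and takes part in transcription, splicing, mRNA storage and translation. In DNA it was first known for the Y-box, an inverted CCAAT element of promoters. In RNA its cold-shock domain is known to recognise the tetranucleotide CAUC, which is CATC in DNA letters, and CACC has been described as a related RNA motif. Tandem repeats of short units arise by slippage during replication, and many lie in introns and between genes.

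The repeat units of the peaks are written out below over 18 bases, 5′ to 3′, because their letters are what sets the groups of peaks apart. Each line is the unit as the annotation lists it, copied end to end, and not a read genomic sequence. Capitals mark CATC or CACC on either strand (GATG or GGTG on the opposite one), and the matches overlap each other along the repeat.
Listing CAT of the ATC unit: CATCATCATCATCATCat
Listing ATG of the ATC unit: atGATGATGATGATGATG
Listing CACCAT of the ACCATC unit: CACCATCACCATCACCat
Listing ATGGTG of the ACCATC unit: atGGTGATGGTGATGGTG
Listing TCCA of the ATCC unit: tcCATCCATCCATCCATC
Listing CCA of the ACC unit: cCACCACCACCACCACCa
Listing TCTA of the AGAT unit: tctatctatctatctatc

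An uninterrupted ATC repeat held CATC in every unit and never CACC. The hexamer ACCATC held both motifs, ATCC held CATC alone, ACC held CACC alone and AGAT held neither. None of these repeats held CCAAT. A match is a property of the unit's letters, not a mapped binding site.

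Both strands of the unit were listed at similar numbers. In replicate 1, 118 members were listed as CAT and 117 as ATG. In replicate 2, 87 were listed as CAT (45.1%, 95% Wilson interval 38.2% to 52.1%) and 106 as ATG (54.9%, 47.9% to 61.8%). Median fold enrichment was 57.1 for CAT and 53.4 for ATG in replicate 1, and 52.0 and 49.0 in replicate 2. Intervals here and below cover counting error only.

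ATC peaks were about as strong as the typical peak of their list, and their median lay below that of the peaks on 4 related or frequent units. Fold enrichment is the authors' own value for each peak, a ratio of the ChIP signal at the summit to the background estimated around it. Its median over ATC members was 53.9 in replicate 1, with quartiles of 40.5 and 79.5 and a range of 14.0 to 165. In replicate 2 the median was 51.7, with quartiles of 37.9 and 68.0 and a range of 18.8 to 163. The medians over all autosomal peaks not on ATC were 53.9 and 54.4. Within each list, the ATC median therefore lay at or just under that of the rest.

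Of the other units, ACCATC had medians of 60.2 and 54.4, ACC of 64.5 and 57.9, ATCC of 66.7 and 54.4, and AGAT of 92.4 and 80.6. The ATC median was 0.584 times the AGAT median in replicate 1 and 0.642 times in replicate 2. Against ACCATC it was 0.895 and 0.950 times. The 95% interval of the ATC median from its order statistics was 51.5 to 59.2 in replicate 1 and 46.7 to 54.4 in replicate 2, which reaches the ACCATC and ATCC medians in replicate 2. Peaks of one library are not replicates of each other, so these differences were not tested.

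**Figure D1:**
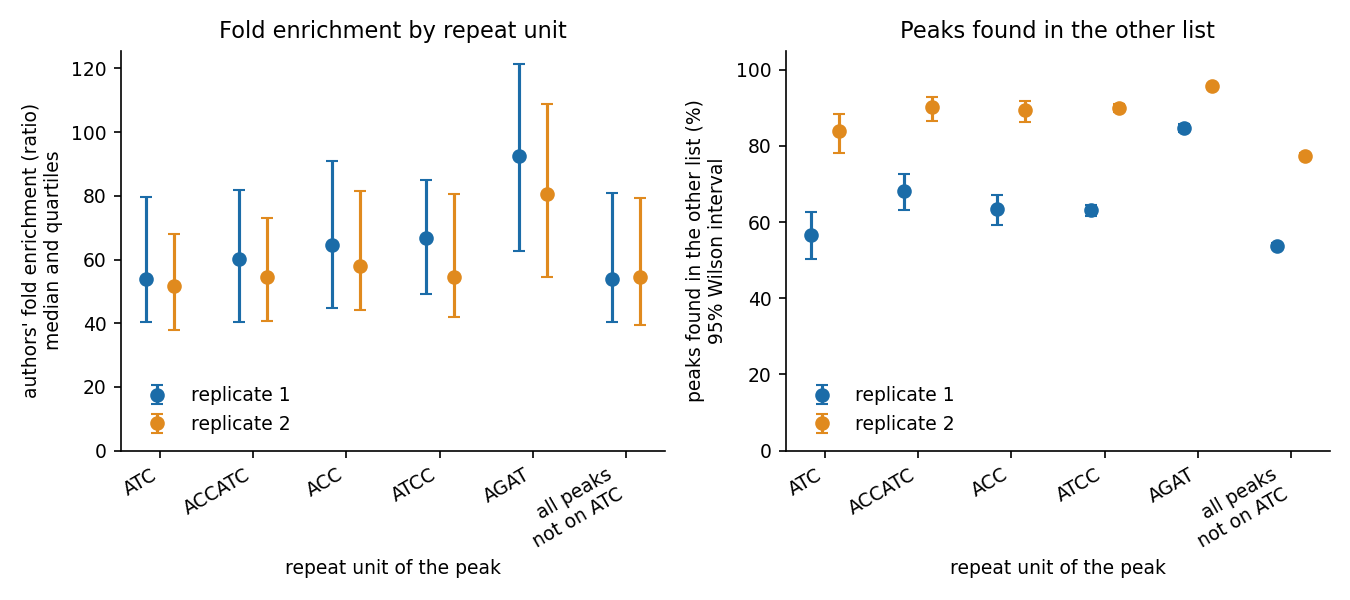
Fold enrichment (left, ratio) and share of peaks found in the other list (right, percent) for peaks on 5 repeat units and for all autosomal peaks not on ATC. Points are medians with quartiles on the left and shares with 95% Wilson intervals on the right. The ATC medians of 53.9 and 51.7 are the lowest of the 5 units in both replicates, and the AGAT medians of 92.4 and 80.6 the highest.

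The tags behind ATC peaks were few for most members and many for some. The median member held 10 tags in replicate 1 and 9 in replicate 2, against 9 and 8 among the other autosomal peaks. The minimum was 5 tags, which 42 members of replicate 1 (17.9%) and 49 of replicate 2 (25.4%) had. At the other end, 34 replicate 1 members (14.5%) held over 50 tags, against 4.34% of the peaks not on ATC, and in replicate 2 it was 11 members (5.70%) against 2.92%. The largest had 490 and 355 tags. ACCATC peaks passed 50 tags in 16.0% and 11.6% of cases and ACC peaks in 14.6% and 9.84%, so the ATC shares did not exceed those of these units. Their widths had medians of 79 bp and 74 bp and reached 1035 bp and 1032 bp. The caller used a fragment shift of 20 bp, shorter than a tag, so widths do not measure the extent of binding.

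For part of the peaks the fold is taken over the genome-wide background because the input lay no higher there. This held for 31.5% of ATC members in replicate 1 (25.9% to 37.7%) and 26.4% in replicate 2 (20.7% to 33.1%). The shares were 36.1% and 34.5% among peaks not on ATC, and 42.0% and 40.2% for AGAT. Peaks on ACCATC had 31.7% and 28.3%, close to ATC. At most ATC members, then, the input entered the fold.

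ATC members were found in the other list about as often as peaks in general. Of replicate 1 members, 133 of 235 overlapped a replicate 2 peak by at least 1 bp (56.6%, 50.2% to 62.8%), where 53.8% of all autosomal peaks of that list did. Of replicate 2 members, 162 of 193 overlapped a replicate 1 peak (83.9%, 78.1% to 88.4%), where 77.5% of all autosomal peaks did. The replicate 1 share is near that background and is no result about ATC repeats. Peaks on ACCATC were found in 68.1% and 90.2% of cases and peaks on AGAT in 84.6% and 95.6%.

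The lead over the background in replicate 2 depended on what counted as found. When each peak had to cover at least 50% of the other, the ATC shares were 32.8% and 38.3%, below the 39.4% and 52.4% of all autosomal peaks. With 50% of the ATC peak covered they were 40.0% and 79.3%, against 42.3% and 71%. With a gap of up to 100 bp allowed they were 73.2% and 93.8%, against 68.6% and 84.9%. Of the 133 found replicate 1 members, 94 thus had at least 50% of their own length covered, and of the 162 found replicate 2 members, 153 did. Cover of 50% in both directions was rarer, at 77 and 74 members. Among peaks with a p-value of at most 1e-10 the ATC shares were 60.6% and 91.5%, against 60.4% and 88%. Among peaks with at least 10 tags they were 79.3% and 98.9%, against 83.9% and 94.5%.

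The share depended on the tags in a peak. Among members with 5 tags, 8 of 42 in replicate 1 (19.0%) and 29 of 49 in replicate 2 (59.2%) were found, against 18.4% and 48.9% of the peaks not on ATC with 5 tags. With 10 to 20 tags, 33 of 56 replicate 1 members were found (58.9%, 45.9% to 70.8%), against 76.1% of the others. In replicate 2 it was 54 of 55 (98.2%) against 92.9%. The direction of the gap thus differed between the lists in that range. All 34 and all 11 members with over 50 tags were found.

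When an ATC member met a peak in the other list, that peak was usually on ATC too. The replicate 2 peak with the largest overlap was an ATC peak for 110 of the 133 found replicate 1 members (82.7%), a peak on the element HAL1-2a_MD for 14 and an ACCATC peak for 4. Of the 162 found replicate 2 members, 124 met an ATC peak (76.5%), 18 an ACCATC peak and 16 a HAL1-2a_MD peak. HAL1-2a_MD is a LINE-class element that the annotation places in the L1 family. None of the found members met an AGAT or ATCC peak.

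ATC peaks lay beside other ATC peaks and beside peaks on HAL1-2a_MD and ACCATC. Within 1 kb in the same list, 57.4% of replicate 1 members and 56.5% of replicate 2 members had another ATC peak, against 1.79% and 2.07% of all autosomal peaks. Apart from AGAT, peaks on the other units had neighbours of their own unit at similar or higher shares. These were 53.2% and 64.3% for ACCATC, 67.3% and 68.5% for ATCC, and 74.5% and 81.1% for ACC. The share was lower for AGAT peaks, at 13.4% and 15.1%. A HAL1-2a_MD peak lay within 1 kb of 112 of 235 members (47.7%, 41.4% to 54.0%) and of 93 of 193 (48.2%, 41.2% to 55.2%), against 5.42% and 5.34% of all autosomal peaks. An ACCATC peak did so for 58 members (24.7%, 19.6% to 30.6%) and 54 members (28.0%, 22.1% to 34.7%), against 3.19% and 3.54%. One or the other lay near 60.4% and 60.6% of ATC members, against 6.84% and 6.90% of all autosomal peaks. The 58 and 54 members with an ACCATC neighbour came from 36 and 40 separate loci.

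The most frequent repeat units of the lists were rare around ATC peaks. An AGAT peak lay within 1 kb of 2 members in each replicate (0.851% and 1.04%), against 19.7% and 17.8% of all autosomal peaks. An ATCC peak lay near 0 of 235 and 0 of 193 members, against 19.7% and 19.1% of all autosomal peaks. Those counts allow shares of up to 1.28% and 1.55% by the limit of 3 counts of the total (the Wilson intervals end at 1.61% and 1.95%). Of the 4247 and 3091 autosomal peaks with an ATCC neighbour, 2910 and 2409 were themselves on ATCC, which raises the share set beside ATC. Among ACCATC peaks too, 0 of 357 and 0 of 336 had an ATCC neighbour, and 47.6% and 47.9% had a HAL1-2a_MD neighbour. ACC peaks also had an ATCC neighbour in 0 of 589 and 0 of 498 cases, and a HAL1-2a_MD neighbour in 33.3% and 28.9%. The lack of ATCC neighbours was thus shared by ATC, ACCATC and ACC peaks. These shares were not tested against each other, since neighbouring peaks are not independent.

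**Figure D2:**
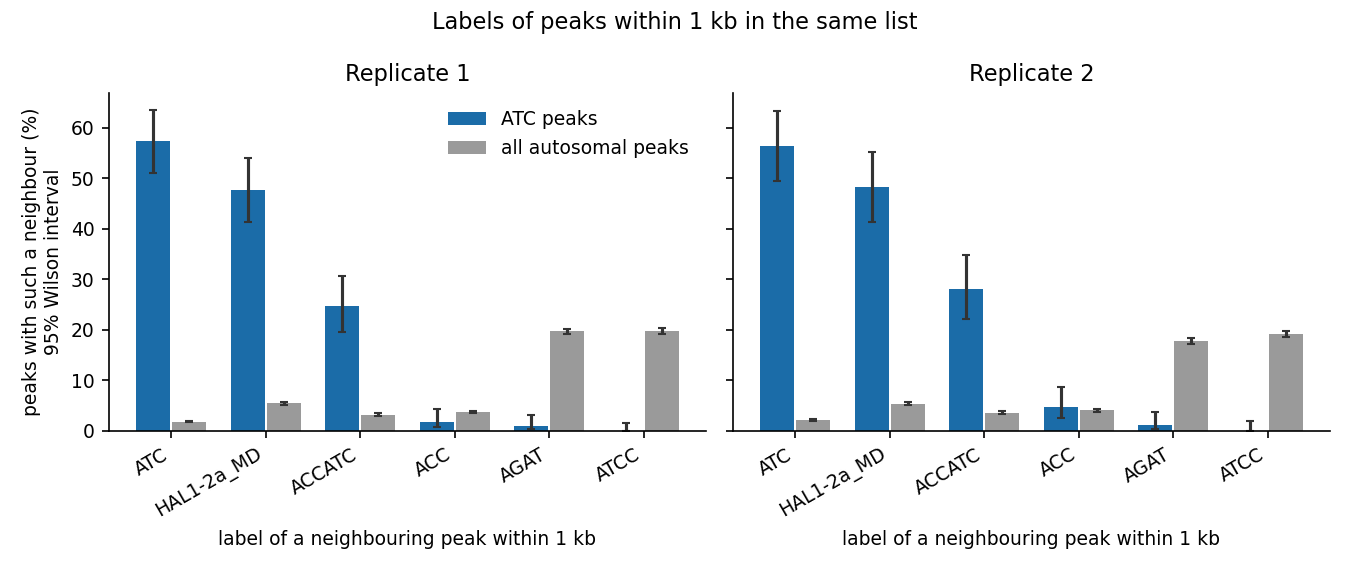
Share of peaks (percent, with 95% Wilson intervals) that had a peak with the given label within 1 kb in the same list, for ATC peaks and for all autosomal peaks, in each replicate. HAL1-2a_MD neighbours were seen for 47.7% and 48.2% of ATC peaks and ATCC neighbours for 0.

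Neighbouring peaks carried repeats listed on the same strand. All 124 pairs of ATC peaks within 1 kb in replicate 1, and all 96 in replicate 2, had the same listing, both CAT or both ATG. All 74 and 96 pairs of an ATC and an ACCATC peak matched as well, CAT beside CACCAT, and ATG beside ATGGTG. With ACC, 4 of 5 pairs in replicate 1 and 9 of 9 in replicate 2 matched, CAT beside CCA, and ATG beside TGG. ATC and ACCATC peaks within 1 kb of each other thus carried units of the same orientation in every pair. ATC peaks on a single annotated repeat share its listing by construction. The extent of the repeats was not known here, so such pairs could not be set apart. Pairs within a locus share that locus and are not independent of each other.

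Members within 1 kb of each other, over both lists, formed 186 loci, of which 88 were listed as CAT, 98 as ATG and 0 as both. Members of both lists were present at 96 loci, of replicate 1 alone at 58 and of replicate 2 alone at 32. A single peak made up 68 loci, and 18 held 5 or more. The locus with the most was in an intron of SORBS2, at 10 members.

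Members with and without an ACCATC or HAL1-2a_MD peak within 1 kb had equal median folds in replicate 1, and in replicate 2 the median was lower for those with one. The median fold enrichment was 53.9 with and 53.9 without in replicate 1, and 48.6 with and 54.4 without in replicate 2. Folds over the genome-wide background take only whole multiples of a fixed value, so equal medians can be ties. They were found in the other list in 58.5% of cases with and 53.8% without in replicate 1. In replicate 2 the shares were 89.7% with and 75.0% without. Overlap with a peak of any label counted as found, ACCATC and HAL1-2a_MD peaks included. None of these differences was tested.

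Overlapping peaks of the lists merged into 139 shared regions with an ATC member, of which 107 had one in both lists, 11 in replicate 1 alone and 21 in replicate 2 alone. By their labels, 76 regions held ATC peaks alone, 30 held HAL1-2a_MD peaks too, 12 ACCATC peaks, 16 both, and 5 other peaks. Regions of ATC peaks alone were shorter, with a median of 110 bp, against 408 bp with HAL1-2a_MD and 659 bp with HAL1-2a_MD and ACCATC. Their highest folds had medians of 67.4 and 54.4 in replicates 1 and 2, against 80.9 and 71.0 with HAL1-2a_MD and 92.4 and 71.3 with both. Longer regions hold more peaks to take the highest fold from, and this was not corrected for.

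Replicate 1 held more tags than replicate 2 in shared regions generally, at a kept library of nearly the same size. Over the 139 regions the summed tags had a median of 45 in replicate 1 and 23 in replicate 2, and they were higher in replicate 1 at 115 regions, equal at 9 and higher in replicate 2 at 15. The median ratio of replicate 1 to replicate 2 tags was 1.48. Replicate 1 was thus higher at 82.7% of the ATC regions, against 71.6% of all 10262 shared autosomal regions, whose median ratio was 1.31. The difference between these shares was not tested. Replicate 2 broke 53 regions into more peaks than replicate 1 did, and the opposite held for 16. The sums count only tags inside peaks. Replicate 1 was higher at all of the 53, with a median ratio of 1.659, and at 13 of the 16, with 1.342. At the 62 ATC regions with 1 peak in each list it was higher at 41, with a median ratio of 1.297. All shared autosomal regions were not divided in this way, so whether the ATC share is higher apart from such splitting was not tested.

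The order of the regions was similar in both libraries. Log2 fold enrichment had a Pearson r of 0.709 and a Spearman rho of 0.734 over the 139 regions, and log2 of the summed tags had 0.944 and 0.938. All 10262 shared autosomal regions had an r of 0.767 for fold and 0.865 for tags. These are descriptions across regions of libraries that share an input, and regions enter only when called in both. Where both folds were taken over the genome-wide background, at 30 regions, r for fold was 0.571.

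**Figure D3:**
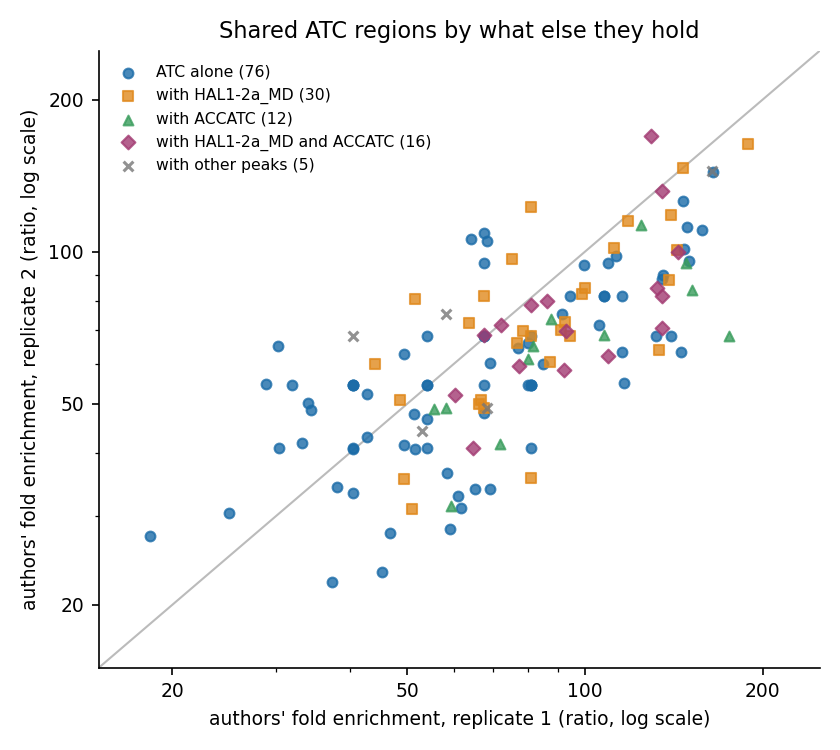
Highest fold enrichment of each of the 139 shared ATC regions in replicate 1 (x axis, log scale) and replicate 2 (y axis, log scale), with symbols for the other peaks the region holds and a line of equal values. Replicate 1 had the higher fold at 102 regions (73.4%, against 61.7% of all shared autosomal regions).

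The shared regions were ranked by the lower of their folds. Of the 20 strongest, 12 were intergenic and 6 intronic, a split like that of all 139, of which 82 were intergenic and 49 intronic. ATC peaks alone made up 8 of the 20. The ATC label was absent from replicate 1 at 5 of them and from replicate 2 at 3, and the highest fold of a region can belong to a peak with another label. Coordinates are hg19 and count from 1. The first lay on chromosome 7 from 395772 to 396128 near FAM20C, which encodes a kinase of secreted proteins. It had folds of 189 and 163, with 68 tags in replicate 1 and 57 in replicate 2, and the replicate 1 fold was that of a HAL1-2a_MD peak, while its ATC peak had 62.9. The next lay on chromosome 16 from 88226238 to 88226973 in the annotated promoter of the uncharacterised gene LOC101928880, at 147 and 146. Here the strongest replicate 2 peak was on an ACC repeat and no replicate 2 peak carried the ATC label.

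The region with the most tags lay on chromosome 4 from 6005165 to 6006204 between JAKMIP1, whose product binds microtubules and JAK family kinases, and MIR378D1. A single peak in each list covered it, with 490 tags and a fold of 165 in replicate 1 and 355 tags and 144 in replicate 2. Near GALNT9, a gene of O-linked glycosylation, a region on chromosome 12 (132926134 to 132926746) had folds of 164 and 144 from 216 and 159 tags. Both rested on many tags in each library. An intron of AJAP1, which encodes a protein of adherens junctions, held a region with ACCATC and HAL1-2a_MD peaks on chromosome 1 (4827241 to 4827816). It was the only one of the 20 with the higher fold in replicate 2, at 129.5 in replicate 1 and 169.5 in replicate 2. The replicate 2 fold was that of a HAL1-2a_MD peak, and no replicate 2 peak there carried the ATC label.

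**Figure D4:**
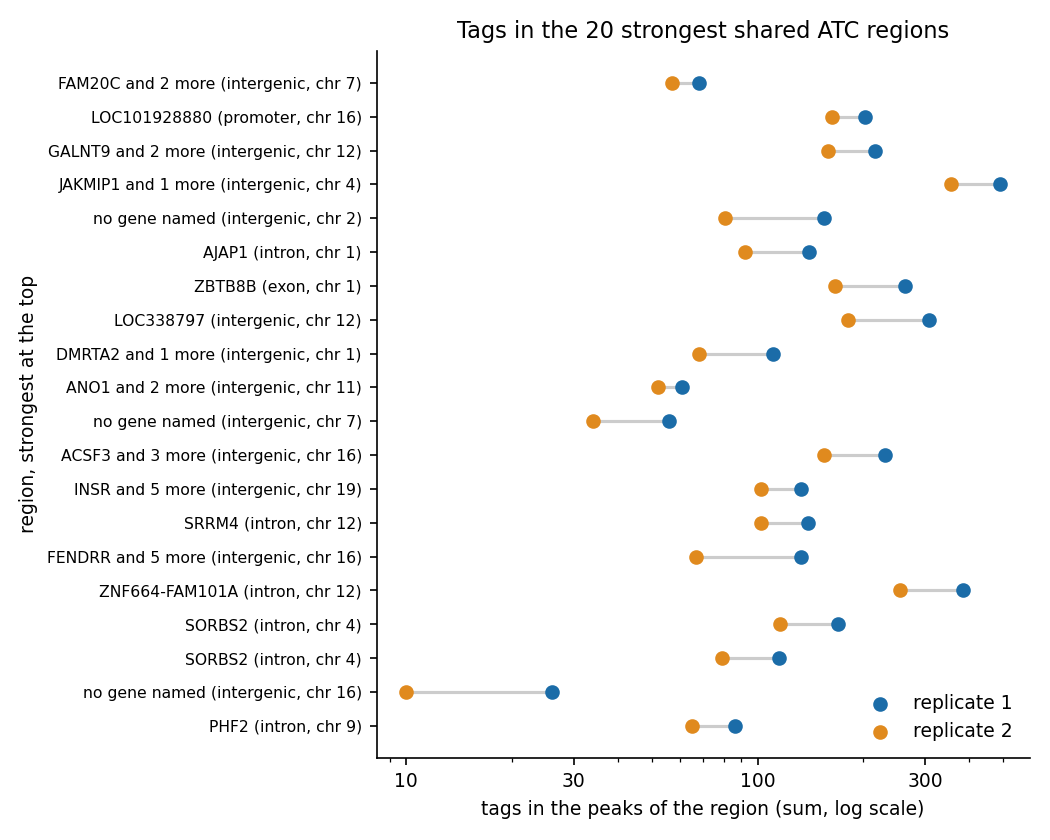
Summed tags (log scale) in the peaks of the 20 strongest shared ATC regions in replicate 1 and replicate 2, named by the first gene the annotation gives, the position and the chromosome. All 20 had more tags in replicate 1.

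The exonic member of each list lay at the same place in ZBTB8B, a BTB and zinc finger gene. It was a peak on a CAT repeat of chromosome 1 (32937119 to 32937862 in replicate 1) with 262 tags and a fold of 147 in replicate 1 and 166 tags and 126 in replicate 2. Near DMRTA2, a transcription factor gene, and FAF1, which encodes a Fas-associated protein, a region of chromosome 1 (50834758 to 50835212) stood at 118 and 115, with ATC peaks in replicate 2 alone that reached 102. An intergenic region near ANO1, the gene of a calcium-activated chloride channel, stood at 125 and 113 on chromosome 11 (69871755 to 69872048). Its replicate 1 fold was that of an ACCATC peak, and its only ATC peak, in replicate 2, had 113 with 20 tags.

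Other strong regions lay in or near genes of varied function. A region of ATC peaks alone on chromosome 16 (89135169 to 89135829) lay near ACSF3, LINC00304 and CBFA2T3, the last encoding the corepressor ETO2 of erythroid and stem cells. It had folds of 158 and 111, with 230 tags in replicate 1 and 155 in replicate 2. SRRM4, a splicing regulator of neurons, had an intronic region on chromosome 12 (119513158 to 119513903) at 147 and 101. An intergenic region near INSR, the insulin receptor gene, and the MBD3L genes on chromosome 19 (7106746 to 7107489) stood at 112 and 102, again with no ATC label in replicate 2. The annotation names the neighbours of an intergenic peak, so a name does not tie the peak to that gene.

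Forkhead genes neighboured another of these regions, on chromosome 16 from 86621289 to 86621927, which lay near the non-coding RNA gene FENDRR and near FOXF1, FOXC2 and FOXL1. Its folds were 143 and 101, with 133 and 67 tags, but its one ATC peak, in replicate 2, had a fold of 44.1 and 10 tags. FENDRR was also named for a pair of weaker regions of a single locus, at 80.0 and 61.2 and at 31.9 and 54.4. Both folds of the first were those of ACCATC peaks, and its only ATC peak, in replicate 2, had 54.4 with 5 tags. Outside SORBS2, the other intronic regions of the 20 lay in ZNF664-FAM101A (144 and 99.8) and in PHF2, a gene related to histone demethylases (148 and 95.2). In ZNF664-FAM101A the ATC peaks were in replicate 2 alone and reached 85.2. In PHF2 the replicate 1 fold was that of an ACCATC peak, and the ATC peak there had 40.5 with 6 tags. LOC338797 on chromosome 12 had one nearby at 140.2 and 118. The 3 others had no gene named and stood at 135 and 132 on chromosome 2, where the only ATC peak had 53.5 with 7 tags in replicate 2, at 149 and 112 on chromosome 7, and at 109 and 95.2 on chromosome 16.

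SORBS2, which encodes an adaptor of the actin cytoskeleton, held the intronic locus with the most members, 10 in 4 shared regions within 984 bp of chromosome 4 (186748149 to 186749132). Every peak there was on a CAT repeat, 4 in replicate 1 and 6 in replicate 2. Along the array the folds were 113, 51.3, 150 and 68.4 in replicate 1 and 97.9, 47.8, 96.1 and 105 in replicate 2. The tags were 169, 20, 115 and 12 in replicate 1 and 116, 20, 79 and 16 in replicate 2. The longest 2 of these regions carried most tags in both libraries.

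C22orf34, now MIR3667HG, also held 4 shared regions, but over a longer stretch of chromosome 22, from 49894730 to 49989633. The first 2 lay in a single locus, from 49894730 to 49894956. The first 3 were on CAT repeats with 6 to 17 tags per library and folds of 54.4 to 80.9. The fourth was on an ATG repeat with ACCATC and HAL1-2a_MD peaks, at 60.2 and 52.0. These folds were those of a HAL1-2a_MD peak in replicate 1 and of an ACCATC peak in replicate 2. Its ATC peaks had 59.2 in replicate 1 and 24.4 in replicate 2. A further 8 genes held a pair of shared regions in the gene or its promoter. They were BTBD11 (now ABTB3), CAMTA1, a calmodulin-binding transcription activator gene, CCDC60, HPCAL1, a neuronal calcium sensor gene, KCNIP1, which encodes a partner of Kv channels, LOC101928708, PHF2 and ZNF536. At BTBD11 and CAMTA1 the regions belonged to different loci. At the other genes of this list the pair lay within a single locus. Over all shared regions 153 genes were named, and 46 of them for at least 2 regions, which can share a locus. For the genes beyond these, such as MRGPRE, OSBPL5 and ANO1 with 3 each, the regions lay between genes or lay only partly inside.

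Most ATC members lay between genes or in introns, at the shares of the lists as a whole. Intergenic sequence held 57.9% of replicate 1 members (51.5% to 64.0%) and 58.0% of replicate 2 members (51.0% to 64.8%), against 57.4% and 58.0% of all autosomal peaks. Introns held 37.9% and 37.3%, against 38.3% and 37.7%. Promoters held 9 members (3.83%) and 8 members (4.15%), against 3.32% and 3.45%. AGAT peaks were intergenic in 68.0% and 67.9% of cases and ATCC peaks in 49.1% and 47.4%. No gene was named for 45 and 35 members.

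The promoter members fell at 7 genes. MDS2 had an ATG repeat peak on chromosome 1 (23952456 to 23952753 in replicate 1) with 70 tags and a fold of 116 in replicate 1 and 33 tags and 63.3 in replicate 2. LOC101928708 had a pair of members in each list on chromosome 16, the stronger at the identical interval 87244062 to 87244158 in both. It held 18 tags at a fold of 108 in replicate 1 and 14 tags at 81.6 in replicate 2. The microRNA gene MIR598 on chromosome 8 had 1 member in replicate 1, with 8 tags, and 3 in replicate 2, with 5 to 33 tags. LOXHD1, a gene of hair cells of the inner ear, had 7 tags in replicate 1 and 5 in replicate 2.

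At EMR1 and CABP5 the lists did not overlap. EMR1, now ADGRE1, an adhesion receptor gene of macrophages, had a member of 6 tags in each list, ending at 6889303 in replicate 2 and starting at 6889315 in replicate 1 on chromosome 19. CABP5, a calcium-binding protein gene of the retina, had 8 tags in replicate 1 alone. LOC101928880 had the member described above and a smaller one of 6 tags, both in replicate 1 alone by their label and both overlapped by replicate 2 peaks.

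Members found in a single list were weak. The 102 of replicate 1 had a median of 7 tags and at most 21, against 19 for the 133 found ones, and a median fold of 42.7 against 65.2. The 31 of replicate 2 had a median of 5 tags and at most 10, against 10.5, and a fold of 40.8 against 54.4. Of these single-list members, 39 of 102 and 19 of 31 lay within 100 bp of a peak of the other list. The strongest were close to such peaks in part. In replicate 1 they were in introns of HMCN2, an extracellular matrix gene (135 with 17 tags, 29 bp from an ACCATC peak), and of CNST (100.0 with 15 tags, 6426 bp from the nearest peak), and near JPH3, a junctophilin gene (94.4 with 21 tags, 51 bp from a HAL1-2a_MD peak). In replicate 2 they lay near FAM20A (62.8 with 9 tags), near LINC00841 (54.4 with 7 tags) and in CRMP1, a gene of axon guidance (54.4 with 6 tags). Their gaps to the nearest peak of the other list were 12 bp, 133621 bp and 108 bp. Further single-list members had the same folds of 94.4 in replicate 1 and 54.4 in replicate 2, so part of this choice rests on ties.

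ATC peaks were concentrated on a few chromosomes. Chromosomes 7, 12, 16 and 22, picked out after their values were seen, held 104 of 235 members in replicate 1 (44.3%) and 79 of 193 in replicate 2 (40.9%), against 16.5% and 16.2% of all autosomal peaks. On chromosome 22 ATC peaks made up 5.05% and 4.31% of the peaks, and on chromosome 16 they made up 3.06% and 2.96%. Chromosome 3 had 1 member in replicate 1 and 0 in replicate 2, among 1109 and 828 peaks. Chromosome 21 had 0 among 723 and 576 peaks, which allows shares of up to 0.415% and 0.521% by the same limit of 3 counts. The number of ATC repeats per chromosome was not measured here. These shares therefore do not say whether YBX1 peaks prefer the repeats of some chromosomes.

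ATC peaks also lay nearer to the outermost peaks of their chromosomes than other peaks did. Chromosome lengths were not used here, so the distance to the nearer of the first and the last peak of the chromosome in either list was taken. The outermost peak need not lie at a chromosome end. The comparison was not made within chromosomes, and the mix of chromosomes differed. Chromosome 22 held 11.5% and 8.81% of members, against 2.48% and 2.43% of all autosomal peaks. The median distance of ATC members was 6.33 Mb in replicate 1 and 6.32 Mb in replicate 2, against 21.4 Mb and 20.4 Mb for peaks not on ATC. Within 5 Mb lay 101 of 235 members (43.0%, 36.8% to 49.4%) and 87 of 193 (45.1%, 38.2% to 52.1%), against 18.7% and 19.7%. ACCATC peaks had 41.2% and 41.4% within that distance, ATCC peaks 30.9% and 31.6%, ACC peaks 25.5% and 23.7%, and AGAT peaks 9.26% and 9.27%. ATC and ACCATC peaks thus shared this position, and AGAT peaks lay at the other extreme. The number of ATC repeats along the genome was not measured here, so these shares do not say whether YBX1 peaks prefer repeats near the ends.

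**Figure D5:**
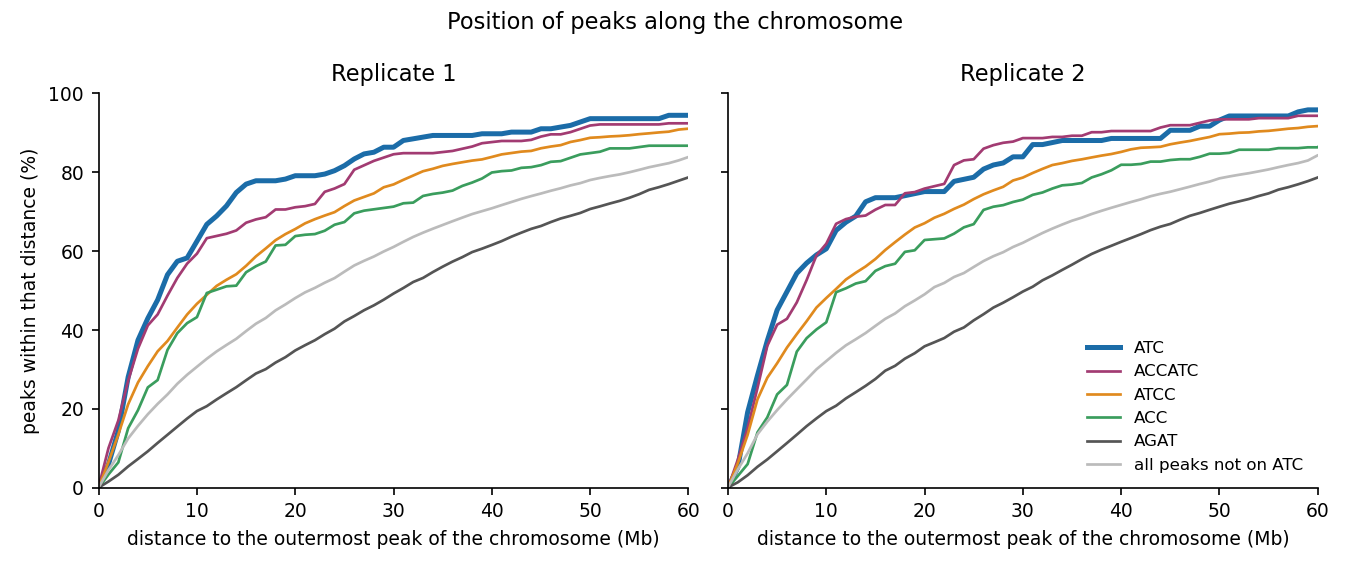
Cumulative share of peaks (percent) by distance to the outermost peak of their chromosome (Mb), for 5 repeat units and all autosomal peaks not on ATC, in each replicate. At 5 Mb the ATC curves stand at 43.0% and 45.1% and those of AGAT at 9.26% and 9.27%.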

How the data were processed

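Tools named are Bowtie2, Trimmomatic 0.36, MACS 1.4 and bcl2fastq 02.14.01.07, with hg19 as the build, per the submitters' processing notes. Peaks were called with MACS 1.4.2 for each replicate against the same input (p-value cutoff 1e-05, 1 tag kept per position), per the file headers. The authors then filtered the lists by a rule not given in the sources used here. The deposited lists give, per the file headers, a count of tags per peak, the authors' fold enrichment as a ratio to the local background, and a false discovery rate in percent, which is 0 throughout. The deposited score column lost its name and was read as minus 10 times log10 of the p-value from its minimum. Replicate 2's header carries another alignment number than its label, and the label was followed.

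Overlap, neighbours and distances were computed with Python 3.11.15, numpy 2.4.6, scipy 1.17.1 and pandas 2.3.3, and the overlap code was tested on simulated data. A genome-wide background fold per tag was computed as the effective genome size in the headers over the kept tags and the shift of 20 bp, 13.485 in replicate 1 and, rounded, 13.6 in replicate 2. Folds within 0.006 of a whole multiple of its unrounded value were taken as lying over that background. Position, repeats and genes are the deposited annotation. Of 239 gene names, 205 were current and 16 older in a RefSeq table of GRCh38, used for names only. Depth limits precision: the weakest peaks hold 5 tags. No test was made across peaks. The genes named are those of the 20 strongest shared regions, of promoter and exon members, of genes with several shared regions and of the 3 strongest single-list members per list, where of genes with several regions between genes only a few are named. Members and lists were chosen with earlier results of these data known.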

Additional observations from a re-analysis of the deposited data

How the results depend on the processing

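Of 50 alternative values, 26 stayed within 1.5 times a main count or inside the 95% interval of a main share, median or correlation, and 24 moved. With peaks of a p-value of at most 1e-10, the lists held 137 and 106 ATC members (replicates 1 and 2), with median folds of 67.4 and 64.8, 91 shared regions, and 91.5% of replicate 2 members found in the other list. With at least 10 tags there were 121 and 95 members, of which 79.3% and 98.9% were found. Asking for 50% of a peak to be covered left 40.0% of replicate 1 members found. A reciprocal overlap of 50% left 32.8% and 38.3% and 82 shared regions, where 39.4% and 52.4% of all autosomal peaks were found. A gap of up to 100 bp gave 73.2% and 93.8%. Counting ATC peaks alone as matches gave 66.8% in replicate 2. Found replicate 1 members had a median fold of 65.2, which was 0.688 times that of found AGAT peaks. By tags in place of fold, the ratio of ATC to ATCC was 0.909 and to ACCATC 0.833 in replicate 1, and that to AGAT 0.692 in replicate 2. The correlation of replicates was 0.944 by tags and 0.571 at the genome-wide background. The share of intergenic members stayed within its interval. Without replicate 1 there were 128 loci and without replicate 2 there were 154, an alternative chosen after seeing the data. No paired analysis was possible because the replicates form a single group with a shared input. Causes of these shifts were not tested.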
